A study of Mus musculus with 24 samples.

Results

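Gastrin-releasing peptide (Grp), its receptor (Grpr) and stathmin (Stmn1), 3 genes with known roles in fear learning in the amygdala, were followed across 24 Affymetrix mouse arrays. They were represented by all 5 probe sets annotated with exactly 1 symbol among these genes, out of 45101 probe sets, of which 34958 carried exactly 1 symbol. Grp had 1 probe set (1424525_at), Grpr had 2 (1450260_at and 1421470_at) and Stmn1 had 2 (1415849_s_at and 1448113_at). In the RefSeq mouse annotation (GRCm38.p6) the genes lie on chromosomes 18, X and 4, respectively.

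The mice were bred by crossing C57BL/6J with A/J, both inbred strains, with selection for contextual fear conditioning, the learned freezing of a mouse in a place where it has received a shock. Total RNA was taken from the hippocampus or the amygdala, and each array was labelled as low freezing or high freezing. This gave 4 groups of 6 arrays, namely hippocampus low, hippocampus high, amygdala low and amygdala high freezing, which differ in brain region and freezing label and share the cross. The labels give neither age, sex or generation of selection, nor whether an array held 1 animal or a pool, and the p-values therefore reflect the spread between arrays, which may be in part technical. The labels also do not say whether equal title numbers mark the same animals in both regions. The hippocampal and amygdala arrays may therefore not be independent of each other. A pooled or dissected tissue also mixes cell types, and fewer cells of a type cannot be told apart from less RNA per cell.

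GRP is the mammalian counterpart of the amphibian peptide bombesin and is made in the lateral amygdala by excitatory neurons and their inputs. Its receptor GRPR couples to the Gq protein, is carried there by GABAergic interneurons, and mice without it show stronger learned fear. Stathmin binds tubulin and destabilises microtubules until it is phosphorylated, and mice without it show reduced learned and innate fear.

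All values are the deposited intensities, a linear measure of a probe set's brightness that does not give the level of one gene relative to another. Differences and tests are on log2(intensity + 16). Folds between groups are of intensity + 16, so they can be smaller than the ratio of the printed means, most for dim probe sets. They come from limma fits over 27022 probe sets that remained after the 64 control probe sets and the dimmest 40% were left out, and a difference was called at a Benjamini-Hochberg adjusted p below 0.05. The median intensity of the arrays ranged from 36.9 to 43.6, and the hippocampal low freezing arrays had the lowest mean of these medians (37.8 ± 0.744, SD, n = 6) and the amygdala high freezing arrays the highest (42.7 ± 0.790, SD, n = 6). The regional labels were checked against markers, in a comparison that called 27.2% of all probe sets higher and 24.2% lower in the amygdala: 7 of 7 measured markers of dentate granule cells were lower in the amygdala arrays (median log2 difference -2.37) and 7 of 7 measured markers of central amygdala and striatum were higher (3.02). Of 6 measured markers of the hippocampal CA fields 5 were lower and Wfs1 was higher, and the 7 of the lateral and basal amygdala were divided, with 3 higher and 3 lower (median -0.04). Markers of choroid plexus (5 of 5, median 3.17), of oligodendrocytes (5 of 5, 2.35) and of thalamus and hypothalamus (4 of 6, 1.54) were also higher in the amygdala arrays.

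Grp, the ligand, was several times lower in amygdala than in hippocampus, and its level in the amygdala varied more between arrays than in the hippocampus. In the hippocampus low freezing arrays its intensity ran from 314.9 through a median of 392.6 to 471.9, and in the high freezing arrays from 271.8 through 354.4 to 397.3. In the amygdala it ran from 23.5 through 58.0 to 115.8 in the low freezing arrays. It ran from 50.1 through 83.7 to 107.9 in the high freezing arrays. Each of the 12 amygdala arrays lay below each of the 12 hippocampal arrays, whereas the freezing labels overlapped within either region. Ranges of this kind, lower in the amygdala and without overlap, were found for 6.02% of the probe sets tested.

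The mean intensity of Grp was 367 ± 52.3 (SD, n = 12) in the hippocampus and 71.1 ± 31.6 (SD, n = 12) in the amygdala. The log2 difference was -2.23 (SE 0.153), or 4.69-fold lower in the amygdala (95% confidence interval 3.77 to 5.82; limma adjusted p = 3.16e-13). This regional comparison called 51.4% of all probe sets (27.2% higher and 24.2% lower in the amygdala), but 2.22% were both called and lower by at least 2-fold, and Grp ranked 35 of 27022 from the low end. The difference held within either freezing label, at -2.53 among the low freezing arrays (limma adjusted p = 5.32e-08) and -1.93 among the high freezing arrays (adjusted p = 1.01e-08), a separation by label that was added after the data were seen.

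**Figure D1:**
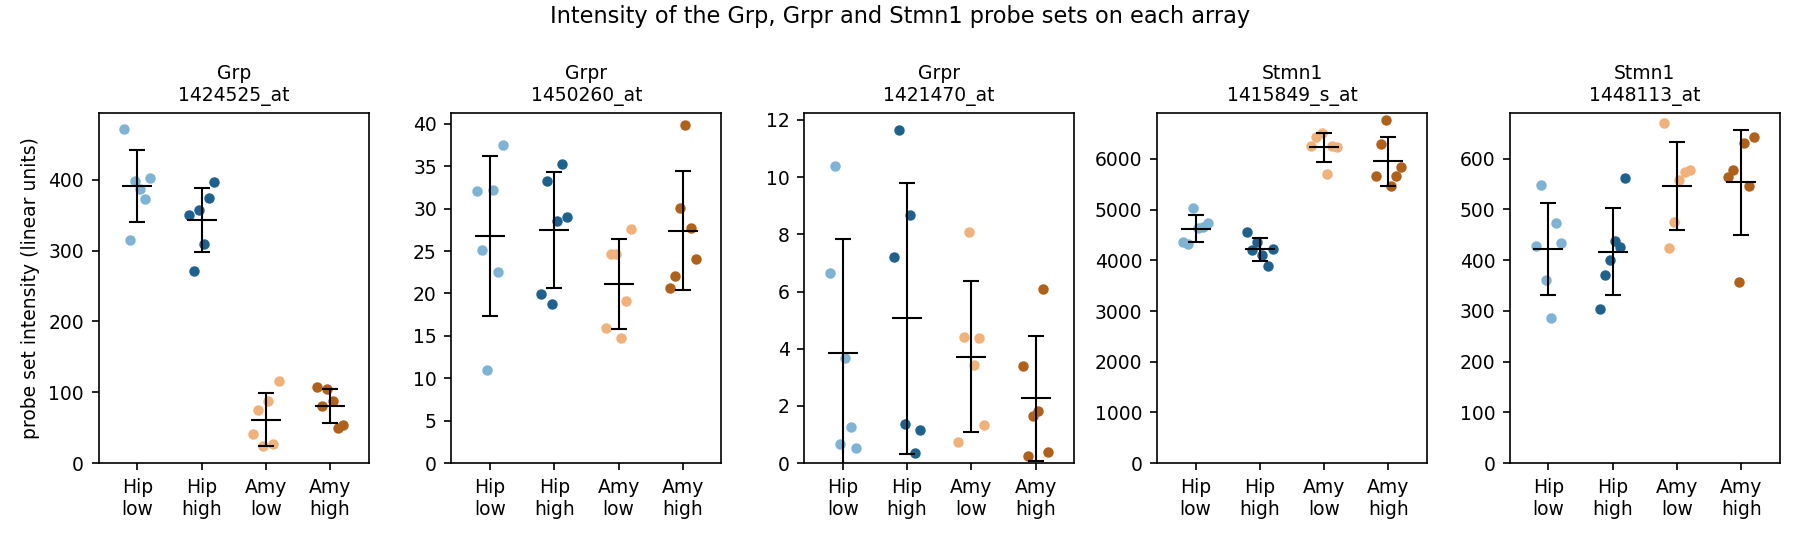
Intensity of each of the 5 probe sets (vertical axes, linear units, each from 0) on the 24 arrays, by region and freezing label, with 1 point per array and the group mean ± SD. The 12 amygdala arrays lie below the 12 hippocampal arrays for Grp and above them for Stmn1 1415849_s_at, whereas the Grpr groups overlap.

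With freezing, Grp did not pass the threshold in either region. In the hippocampus the high freezing arrays averaged 344 ± 45.5 and the low freezing arrays 391 ± 50.8 (SD, n = 6 each), a log2 difference of -0.18 (95% confidence interval -0.62 to 0.26; limma adjusted p = 0.798). In the amygdala the order was the opposite, with 80.5 ± 24.5 in high and 61.6 ± 37.2 in low freezing arrays. That log2 difference was 0.42 (interval -0.02 to 0.86), or 1.34-fold (limma adjusted p = 0.495). An exact permutation test over the arrays gave a two-sided p of 0.229. The fit shares 1 spread over all groups, but Grp varied more in the amygdala. The amygdala interval is thus narrower, and the hippocampal interval wider, than the region's own spread would give. With the amygdala arrays alone the limma unadjusted p was 0.138, against 0.0621 in the shared fit. No high freezing array exceeded the highest low freezing array, and none lay below the lowest. The freezing comparison called 0.0518% of probe sets in the hippocampus and 0.0555% in the amygdala. None of the member probe sets tested there was among them, and Grpr 1421470_at, left out by the filter, could not be called. The test of the difference between the regions' freezing effects gave 0.60 for Grp (interval -0.03 to 1.22; limma unadjusted p = 0.0595, adjusted p = 0.833). It called 0% of probe sets, with 6.07% of them at an unadjusted p below 0.05.

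The spread of Grp was wide in the amygdala. The coefficient of variation was 60.3% in the low and 30.4% in the high freezing arrays of the amygdala, against 13.0% and 13.2% in those of the hippocampus, and on the log2 scale the SD within groups was 0.577 in the amygdala and 0.186 in the hippocampus. The low freezing amygdala arrays numbered 1, 3 and 5 held the lowest Grp values, 40.8, 23.5 and 26.5. Arrays 2, 4 and 6 of the same group stood at 75.2, 87.6 and 115.8, so that this group spanned a 4.92-fold range that also took in the whole high freezing group.

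Across the 12 amygdala arrays, the level of Grp went with the mean of a list chosen as markers of the lateral and basal amygdala. The list was not specific to the amygdala arrays, where 3 of its genes were higher and 3 lower than in the hippocampus. The mean log2 level of the 7 measured markers (Rspo2, Fezf2, Lypd1, Otof, Slc17a6, Lmo3 and Cyp26b1) correlated with that of Grp at r = 0.94 and rho = 0.97. Both permutation p-values were 1e-05, the smallest the resamples could give, and the adjusted p over the 48 relations examined (2 probe sets, 12 marker lists and 2 regions) was 0.00048. The lists were chosen with earlier results of these data known, and the adjustment does not cover that choice. Without the 2 arrays farthest from the median of the marker mean, r was 0.96, and it was 0.97 within the low and 0.96 within the high freezing arrays. The marker mean had its widest gap between 7.36 and 7.64, with 5 arrays below and 7 above, and among those 7 arrays r was 0.86.

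Single markers differed in how they followed Grp. Rspo2, which encodes a secreted Wnt agonist, gave r = 0.88, the transcription factor gene Fezf2 gave 0.84 and Lypd1 gave 0.90. Lmo3 gave 0.79, Cyp26b1, whose enzyme breaks down retinoic acid, 0.78, and Otof 0.56. Slc17a6, the vesicular glutamate transporter VGLUT2, ran the other way at -0.66, so 6 of the 7 markers were positive. Arrays 1, 3 and 5 of the low freezing amygdala, lowest in Grp, were also lowest in Rspo2, at 35.6, 34.7 and 28.0.

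**Figure D2:**
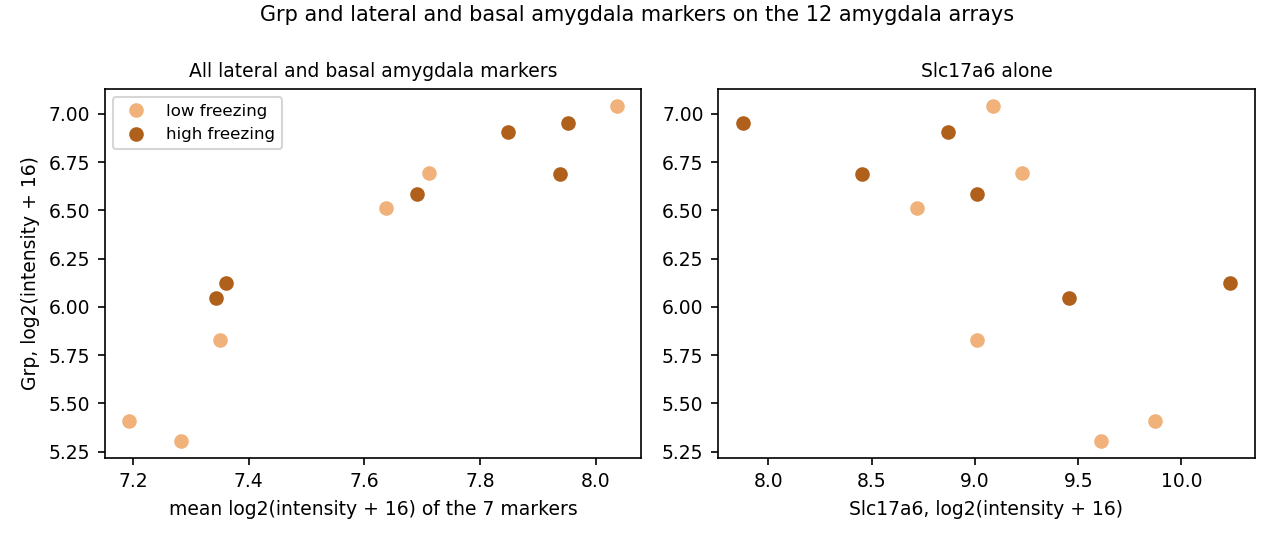
Grp on the vertical axis, log2(intensity + 16), against the mean of the 7 lateral and basal amygdala markers (left) and against Slc17a6 alone (right), both on the same log2 scale, for the 12 amygdala arrays coloured by freezing label. Grp follows the marker mean upward (r = 0.94) and goes down as Slc17a6 goes up (r = -0.66).

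The summed intensity of these 7 markers ran from 1585 through 1743 to 2222 in low and from 1629 through 1933 to 2211 in high freezing amygdala arrays, with no marker at 0 on any of them. Between the freezing labels 6 of the 7 markers had log2 differences above 0 in the amygdala, as had 52.9% of all probe sets. The median of the markers was 0.08, against 0.01 over all probe sets, and none of the markers passed the threshold. The part of these markers in the freezing difference of Grp was not tested. In the hippocampus the same list gave r = 0.34 with Grp (permutation test, adjusted p = 0.672). Of the other lists, markers of the hippocampal CA fields passed in the amygdala arrays (r = 0.84, rho = 0.71, permutation adjusted p = 0.024; 0.73 without the 2 farthest arrays), with r = 0.96 within the low freezing arrays but 0.07 within the high freezing arrays. GABAergic interneuron markers gave 0.72 and the oligodendrocyte, microglia and astrocyte lists -0.73, -0.73 and -0.70, and these did not pass (permutation adjusted p from 0.0854 to 0.088). Singly, 4 of 6 CA field markers and 6 of 11 interneuron markers were positive with Grp. So were 1 of 5 oligodendrocyte, 1 of 5 microglia and 0 of 4 astrocyte markers.

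Between regions, lateral and basal amygdala markers were divided. Fezf2, 5.21-fold, Rspo2, 3.74-fold, and Lmo3, 1.89-fold, were lower in the amygdala arrays, as Grp was. Slc17a6 (3.20-fold), Otof (2.91-fold) and Cyp26b1 (2.01-fold) were higher, and Lypd1 did not pass (limma adjusted p = 0.836). The list's median log2 difference was -0.04, against 0.02 over all probe sets.

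The genes most like Grp over the 24 arrays, by Pearson correlation of log2 values among 12490 other genes, were Vxn (0.99), Cadps2, which primes dense-core vesicles for release (0.98), Ccn3 (0.98), Ak5 (0.98) and the synaptic vesicle protein gene Sv2b (0.98). These 5 were likewise lower in the amygdala, by 2.64-fold (Sv2b) to 7.18-fold (Ccn3). After the mean of each group was subtracted, Vxn (0.91) again came first, then C1ql3, a secreted synaptic protein gene (0.90), Kcnf1 (0.84), the syntaxin gene Stx1a (0.84) and Nsfl1c (0.83). These correlations describe arrays that share region and labels.

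Grpr, the receptor, was dim, and its groups overlapped in each comparison. Probe set 1450260_at ran from 10.9 through a median of 28.6 to 37.5 in hippocampus low and from 18.7 through 28.8 to 35.2 in hippocampus high freezing arrays. In the amygdala it ran from 14.7 through 21.8 to 27.6 in low and from 20.7 through 25.9 to 39.8 in high freezing arrays. Its mean over the 24 arrays was 25.7, close to the lowest mean that was kept (24.2), so it was among the dimmest probe sets tested. Detection calls were not used here.

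The receptor's group means lay between 21.1 ± 5.27 (amygdala low freezing) and 27.5 ± 6.81 (hippocampus high freezing; SD, n = 6 each), and no 2 neighbours in that order differed beyond their spread. The regional log2 difference was -0.09 (95% confidence interval -0.32 to 0.14; limma adjusted p = 0.523). With the constant added to the intensity set to 1, it was -0.14 (limma adjusted p = 0.580). In the main fit the lower end of the interval is 1.25-fold lower in the amygdala. That fold includes the added constant, which shrinks the folds of dim probe sets. It therefore sets no limit on the fold of Grpr RNA. With freezing, the difference was 0.04 in the hippocampus (interval -0.28 to 0.37; adjusted p = 0.952) and 0.22 in the amygdala (interval -0.10 to 0.55; limma adjusted p = 0.668). In the amygdala, 3 of 6 high freezing arrays stood above the highest low freezing array. The difference between the regions' freezing effects was 0.18 (limma adjusted p = 0.937).

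The second Grpr probe set, 1421470_at, was among the dimmest 40% and was fitted only without that filter. Its intensities ran from 0.257 to 11.7 over the 24 arrays with a mean of 3.73, and its regional difference was -0.09 (limma adjusted p = 0.572). Its freezing differences were 0.08 in the hippocampus (adjusted p = 0.912) and -0.11 in the amygdala (limma adjusted p = 0.894). At such intensities the probe set gives no usable order of the groups.

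**Figure D3:**
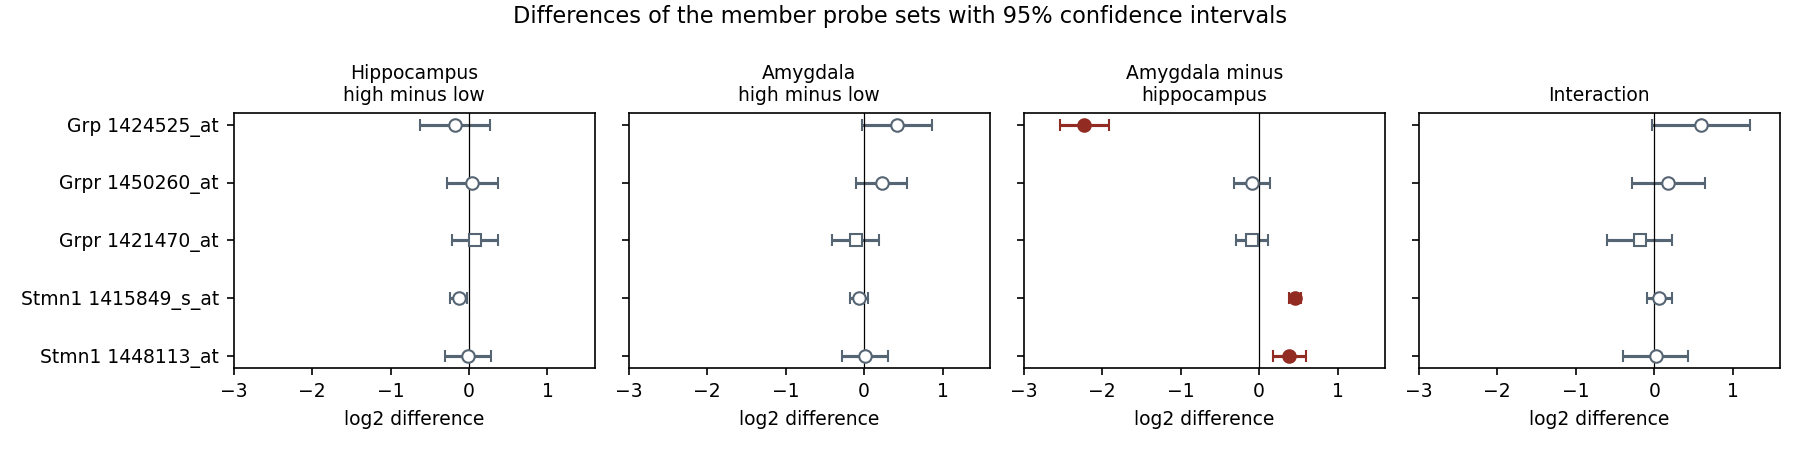
log2 differences (horizontal axis) of the 5 probe sets with their 95% confidence intervals, for each comparison; the interaction is the amygdala's freezing difference minus that of the hippocampus, filled symbols passed the threshold and squares were fitted without the filter. The intervals of Grp and of both Stmn1 probe sets lie clear of 0 between regions, on opposite sides, and those of both Grpr probe sets include 0 in each comparison.

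The genes with the highest correlation to Grpr were Ttc30b (0.76) and Ift81 (0.70), both coding for intraflagellar transport proteins of the cilium, followed by Atp2b3 (0.66), Lins1 (0.65) and Scoc (0.65). After group means were subtracted, Ift81 (0.78), Ttc30b (0.77), Abcc4 (0.77), Cd24a (0.75) and Cnep1r1 (0.71) led. These coefficients, over arrays with few units of Grpr signal, are given as a description.

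The other genes of the bombesin family offered 1 further measured member. Nmb, which encodes the related peptide neuromedin B, had 87.5 ± 16.3 in the hippocampus and 62.5 ± 13.9 in the amygdala (SD, n = 12 each), 1.32-fold lower (limma adjusted p = 0.00121). Both peptide ligands were thus lower in the amygdala, as were 24.2% of all probe sets. The other receptors, Nmbr and Brs3, were among the dimmest 40%, with means from 12.6 to 22.5 by region and probe set. No measured member of the family passed in a freezing comparison.

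Of the Gq pathway through which GRPR signals, 9 of 12 listed genes were measured. In the amygdala 5 were lower and 2 higher, against 24.2% and 27.2% of all probe sets, and 2 did not pass. The median log2 difference was -0.27, against 0.02 over all probe sets. The phospholipase C gene Plcb4 was higher, at 219 ± 25.2 in the hippocampus and 986 ± 306 in the amygdala (SD, n = 12 each; 4.10-fold, limma adjusted p = 2.10e-14). The kinase gene Prkca was 2.59-fold lower (1149 ± 70.0 against 439 ± 69.4). Gnaq, the G protein subunit itself, was 1.57-fold lower, and Plcb1 was 1.25-fold lower. None of the 9 passed with freezing in either region.

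GRPR-bearing cells of the amygdala are GABAergic, and markers of that class were mixed between regions, with 5 higher and 5 lower of 11, against 27.2% and 24.2% of all probe sets. The GABA transporter gene Slc32a1 was 3.92-fold, Pvalb 3.52-fold and Gad2 2.66-fold higher in the amygdala. The peptide genes Cck and Vip were 3.69-fold and 3.39-fold lower. The regional difference of Grpr did not pass, as given above, and its correlation with Grp was -0.02 in the hippocampus and 0.28 in the amygdala (permutation test over 12 arrays, adjusted p = 0.98 and 0.76 over 10 relations).

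Stmn1 was higher in the amygdala by both probe sets, with a smaller fold than Grp and in the opposite direction. For 1415849_s_at, whose suffix by Affymetrix naming marks probes shared by more than 1 transcript, intensities ran from 4320 through a median of 4645 to 5041 in hippocampus low freezing arrays. They ran from 3885 through 4208 to 4564 in hippocampus high freezing arrays. In the amygdala they ran from 5700 through 6252 to 6502 in low and from 5465 through 5758 to 6761 in high freezing arrays. All 12 amygdala arrays stood above all 12 hippocampal arrays, a separation that 7.20% of the probe sets tested showed in this direction.

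The mean of 1415849_s_at was 4423 ± 316 in the hippocampus and 6090 ± 405 in the amygdala (SD, n = 12 each). The log2 difference was 0.46 (SE 0.0386), or 1.38-fold higher (95% confidence interval 1.30 to 1.45; limma adjusted p = 2.67e-11). Calls in this direction were made for 27.2% of probe sets, and by size the difference ranked 3246 of 27022 from the high end. It was 0.43 among low freezing arrays (limma adjusted p = 2.47e-06) and 0.49 among high freezing arrays (adjusted p = 3.30e-06). As for Grp, this separation by label was added after the data were seen.

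The second probe set, 1448113_at, was dimmer and more variable. It ran from 285.1 through 430.6 to 548.1 in hippocampus low and from 304.1 through 412.5 to 562.4 in hippocampus high freezing arrays. In the amygdala it ran from 423.5 through 566.0 to 670.8 in low and from 357.5 through 570.4 to 643.5 in high freezing arrays. The regions overlapped, with 7 of 12 amygdala arrays above the highest hippocampal array. Its regional log2 difference was 0.39 (SE 0.102), or 1.31-fold (95% confidence interval 1.13 to 1.51; limma adjusted p = 0.00215), close in size to that of the first probe set.

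With freezing, neither Stmn1 probe set passed the threshold. In the hippocampus 1415849_s_at averaged 4220 ± 229 in high and 4625 ± 262 in low freezing arrays (SD, n = 6 each), and 4 of 6 high freezing arrays lay below the lowest low freezing array. The log2 difference was -0.13 (interval -0.24 to -0.02; limma unadjusted p = 0.0229, adjusted p = 0.325), and an exact permutation test of this value alone gave a two-sided p of 0.0152, unadjusted. The difference was -0.06 with quantile normalization (limma unadjusted p = 0.154) and -0.07 for the mean of both Stmn1 probe sets (limma unadjusted p = 0.304), and -0.19 with arrays centred on their median (unadjusted p = 0.00529). An unadjusted p below 0.05 was reached by 11.8% of the probe sets in that comparison. The second probe set gave -0.01 there (interval -0.31 to 0.28; limma adjusted p = 0.988), an interval that includes the value of the first.

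In the amygdala, 1415849_s_at averaged 5952 ± 486 in high and 6228 ± 280 in low freezing arrays, a log2 difference of -0.07 (interval -0.18 to 0.04; limma adjusted p = 0.722), and 1448113_at gave 0.01 (interval -0.29 to 0.30; adjusted p = 0.992). The differences between the regions' freezing effects were 0.06 and 0.02 (limma adjusted p = 0.936 and 0.994).

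Array by array the Stmn1 probe sets did not follow one another. Within the amygdala r was -0.62 (rho = -0.43; permutation p = 0.027, adjusted p = 0.27 over 10 relations), and -0.28 without the 2 farthest arrays. Within the hippocampus it was -0.37 (adjusted p = 0.6). Stmn1 1415849_s_at and Grp gave 0.36 in the hippocampus and -0.20 in the amygdala (permutation adjusted p = 0.6 and 0.871).

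Stmn1 is known in the adult hippocampus from newly born neurons and in white matter from cells of the oligodendrocyte lineage, and lists for both were examined. Of 11 listed genes for immature neurons and dividing cells, 5 were measured. The others were left out by the filter or had no probe set with exactly 1 symbol. Of the 5, 3 were lower in the amygdala, where 24.2% of all probe sets were: Neurod1 (6.35-fold; also a gene of mature granule cells), Sox4 (1.15-fold) and Dpysl3 (1.12-fold). Dcx and Sox11 did not pass (limma adjusted p = 0.814 and 0.0566). The summed intensity of the 5 was 1477 to 1805 in the hippocampal and 982 to 1280 in the amygdala arrays, and Neurod1 alone averaged 374 and 47.6. Oligodendrocyte markers were higher in 5 of 5, against 27.2% of all probe sets. Their sum lay between 11230 and 14969 in the hippocampal and between 27341 and 38325 in the amygdala arrays. These sums did not overlap, and 7.20% of single probe sets showed such a separation in this direction. Within the 12 amygdala arrays they gave r = 0.56 with Stmn1 1415849_s_at (permutation adjusted p = 0.366), and no marker list passed for Stmn1 in either region. Their part in the regional difference of Stmn1 was not tested.

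The stathmin family was divided between the regions, with 2 of 4 genes higher and 1 lower in the amygdala, against 27.2% and 24.2% of all probe sets. Stmn4 was higher in the amygdala, like Stmn1, at 2175 ± 249 against 1309 ± 115 (SD, n = 12 each; 1.65-fold, limma adjusted p = 6.01e-12). Stmn2, which acts in growing axons, was lower by both of its probe sets, 1467 ± 109 against 2241 ± 141 at the brighter (1.52-fold, limma adjusted p = 3.53e-13). Stmn3 did not pass by either (log2 differences 0.05 and 0.02). None of the 4 genes passed with freezing.

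**Figure D4:**
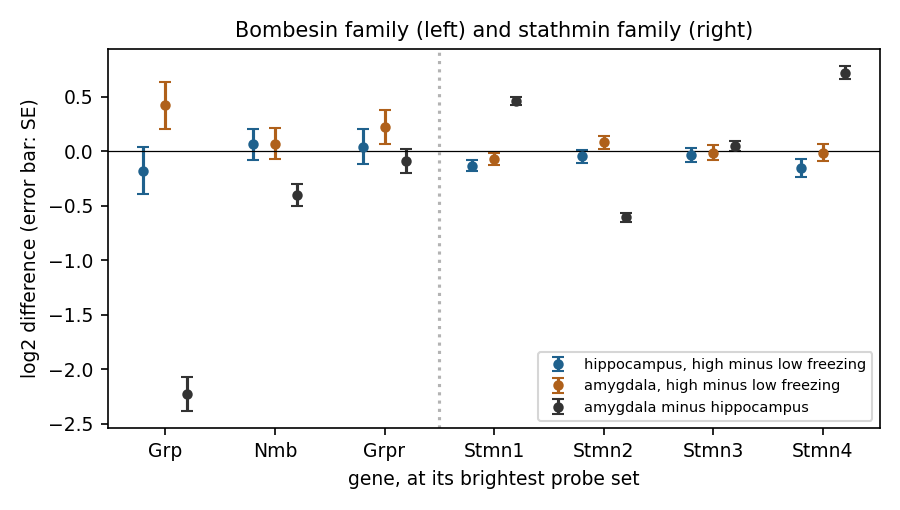
log2 differences (vertical axis, error bars SE) of the measured bombesin family genes (left of the dotted line) and the 4 stathmin genes (right), each at its brightest probe set, for both freezing comparisons and the regional comparison. Between regions Grp, Nmb and Stmn2 lie below 0 and Stmn1 and Stmn4 above it. The freezing differences of Nmb and of the stathmins run from -0.15 (Stmn4, hippocampus) to 0.08 (Stmn2, amygdala).

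Among 8 measured of 14 listed kinases and phosphatases that act on stathmin, 2 were lower and 1 higher in the amygdala, against 51.4% of all probe sets called in either direction. Camk2a was 2.80-fold lower (4185 ± 532 against 1500 ± 303; SD, n = 12 each) and Mapk8, the JNK1 gene, 1.29-fold lower. Camk4 was 1.38-fold higher (limma adjusted p = 0.00211). The median of the list, -0.04, was near that of all probe sets, 0.02.

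Stathmin's substrate, tubulin, was represented by 11 measured genes, of which 3 were higher and 5 lower in the amygdala, against 27.2% and 24.2% of all probe sets (list median -0.06). Tubb4a, the beta tubulin of oligodendrocytes and neurons, was 2.02-fold higher (1391 ± 74.4 against 2823 ± 226; limma adjusted p = 7.94e-18). Tuba8 was 1.52-fold, Tubb2a 1.46-fold and Tubb2b 1.39-fold lower. Of 14 microtubule-associated proteins 5 were higher and 4 lower, with a median of -0.03, where 51.4% of all probe sets were called. Among those called were Dclk1 (1.49-fold lower), the dendritic Map2 (1.33-fold lower), the depolymerising kinesin Kif2a (1.25-fold lower) and the plus-end binding Mapre1 (1.21-fold higher). None of these genes passed with freezing.

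The genes most like Stmn1 1415849_s_at over the 24 arrays were the lysosomal membrane gene Lamp1 (r = 0.97), the axonal kinesin gene Kif5a (0.96), Ndufb8 of respiratory complex I (0.96), S100a1 (0.95) and the fatty acid desaturase gene Scd2 (0.95), which were 1.32-fold to 1.74-fold higher in the amygdala. After group means were subtracted they were Sparcl1 (0.79), Nsmce2 (0.78), Chmp4b (0.77), Snapc3 (0.72) and Ndufa8 (0.71). No gene was shared by these lists, whereas Vxn stood in both lists of Grp.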

How the data were processed

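Total RNA of 24 samples was hybridised to Affymetrix mouse arrays. The deposited intensities are the authors' processed values on a linear scale. No software for them is named in the sources used here, but the trimmed mean of each array, leaving out 2% at each end, is 150, so arrays were already scaled. log2(intensity + 16) was computed here from the deposited intensities and fitted with limma 3.58.1 (R 4.3.3): 1 mean per group of 6 arrays, an intensity trend in the variance prior, two-sided tests and Benjamini-Hochberg adjustment over 27022 probe sets. The regional comparison averages both freezing labels. Symbols come from the platform annotation: 932 probe sets had several and 9211 none. The number of arrays limits the precision.

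The members and gene lists were chosen with earlier results of these data known. Named were all member probe sets, the bombesin and stathmin families, up to 4 called genes per list by size of difference, and the 5 genes most like each member by either measure; lateral and basal amygdala and interneuron markers named beyond these, Dcx, Sox11, Wfs1, and the single arrays, were chosen after their values were seen. Lists use each gene's brightest probe set. Single values were also tested by permuting arrays (exact for 6 against 6, otherwise 100000 resamples). Arrays with equal numbers in the sample titles were not treated as pairs in the main fit. Alternatives covered offset, scaling, filter, variance prior, array weights, probe sets per gene, arrays in the fit and a replicate block. The code was tested on simulated data.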

Additional observations from a re-analysis of the deposited data

Results flagged for a closer look

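Of the 20 sets of 6 arrays (5 probe sets, 4 groups) examined with Dixon's criterion on log2 values, 2 held an array apart from the rest, where chance gives about 1 in 20. For Stmn1 1415849_s_at, array 4 of the amygdala low freezing group was lowest, at 5700.4, with a gap to its nearest neighbour of 0.682 of the group's range (critical value 0.625). For Stmn1 1448113_at, array 9 of the amygdala high freezing group was lowest, at 357.5, with a gap of 0.720 of the range. No array of Grp or Grpr stood apart by this criterion in any group.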

How the results depend on the processing

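The regional calls of Grp and of both Stmn1 probe sets kept their direction and their side of the threshold under each alternative run, at -2.53 to -1.70 for Grp, 0.38 to 0.49 for Stmn1 1415849_s_at and 0.31 to 0.40 for 1448113_at. Leaving out 1 array gave -2.32 to -2.15, 0.44 to 0.47 and 0.33 to 0.44. Scaling moved the balance of regional calls, from 7351 higher and 6535 lower to 6718 and 7332 with quantile normalization and to 5624 and 8609 with arrays centred on their median, and the medians of the arrays spanned 0.172 on the log2 scale. Freezing differences near 0 changed sign. With centred arrays Stmn1 1448113_at was -0.0346 in the amygdala and Grpr 1450260_at -0.0133 in the hippocampus, and with quantile normalization Grpr 1450260_at was -0.0186 and Stmn1 1448113_at 0.000985 in the hippocampus. The hippocampal difference of Stmn1 1415849_s_at, -0.13, passed at an adjusted p in no alternative (lowest limma adjusted p 0.163). Unadjusted, p was 0.0152 in the exact permutation test and 0.0229 in the main limma fit. The difference was -0.06 with quantile normalization and -0.07 with 1 value per gene, against -0.19 with centred arrays. Leaving out 1 array moved the freezing difference of Stmn1 1448113_at from -0.0603 to 0.125 in the amygdala and from -0.113 to 0.0716 in the hippocampus, the difference between the regions' freezing effects from -0.0636 to 0.136, and the freezing difference of Grpr 1450260_at in the hippocampus from -0.0841 to 0.114. For Grp in the amygdala it gave 0.25 to 0.60 (limma adjusted p from 0.194 to 0.778). Counts of freezing calls were small and moved: in the amygdala 15 became 9 with 1 value per gene (which tests 12491 genes), 0 with the arrays of that region only and 2 without the trend in the variance prior, and 2 to 56 when 1 array was left out. In the hippocampus 14 became 24 with array weights, 1 with 1 value per gene, 6 without the filter, 9 with an offset of 1, 22 with the arrays of that region only, 5 without the trend, and 0 to 33 when 1 array was left out. The regional count was 7158 with 1 value per gene. The cause of the moves was not tested. Correlations of same-numbered arrays were -0.08 to 0.08 over 12 pairs, and 4 arrays matched their own number best. Such weak correlations cannot tell whether the regions shared animals. With the title numbers as a replicate block the regional count was 13814 in place of 13886 and Grp gave -2.23 (limma adjusted p = 2.75e-10). Grpr 1450260_at has no value when the dimmest 60% are left out, and Grpr 1421470_at only has one without the filter, so low signal limits what can be said of Grpr.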
